A study of Mus musculus with 13 samples.

Results

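Deptor, the gene of an mTOR inhibitor named for its DEP domains, and 9 genes of the mTOR complexes and their nearest regulators were followed through the RNA of sorted bone marrow (BM) common lymphoid progenitors (CLPs), the cells of the marrow that give rise to lymphocytes. The genes were chosen by symbol: Deptor, Mtor, Rptor, Rictor, Mlst8, Rheb, Tsc1, Tsc2, Eif4ebp1, and Eif4ebp2. All 10 were found, of 24972 genes in the expression tables. The RNA came from 5 WT, 5 Notch1+/-, and 3 Notch1+/ΔTAD mice, with 1 library per mouse, and the question behind the comparison was which transcripts of CLPs depend on Notch signaling. Deptor is described by the study as a canonical Notch target.

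All mice were adult C57BL/6 animals of 6 to 12 weeks, and CLPs were sorted as DAPI-/Lin-/Sca1Lo/cKitLo/CD127+/CD135+ cells. Notch1+/- mice carry 1 null allele of Notch1 (Notch1tm1Con) in every cell. Notch1+/ΔTAD mice carry 1 allele without the transactivation domain, whose product competes with the WT protein for the DNA-binding factor RBPj. Neither mutation is restricted to CLPs. Libraries were prepared from little RNA by a 3′ method, so reads come from the ends of transcripts.

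mTOR is a kinase that joins nutrient and growth factor signals to protein synthesis and growth, and lymphoid progenitors depend on it for proliferation. It works in a pair of complexes that share MLST8: mTORC1, built with RPTOR, and mTORC2, built with RICTOR. DEPTOR binds and inhibits mTOR in both. The GTPase RHEB activates mTORC1, the TSC1 and TSC2 proteins together switch RHEB off, and EIF4EBP1 and EIF4EBP2 hold back cap-dependent translation until mTORC1 phosphorylates them. The activity of these proteins is set largely by phosphorylation, which RNA does not report.

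Levels are given in TPM, a measure of transcript abundance per length in which the values of each library sum to 1000000. The tables hold no read counts, so depth is unknown, and only the differences among mice tell how precise a value is. Between 3264 and 6326 genes were above 0 TPM in a library. Each Notch1+/ΔTAD library listed more genes (4706 to 5764) than any WT library (3744 to 4614), whereas Notch1+/- libraries spanned both (3264 to 6326), and 14823 genes were at 0 in every library. Genes that every cell of the sort should use are at 0 in single libraries (Ptprc in Notch1+/- library 5, Il7r in Notch1+/- library 6), so a value of 0 is written here as listed at 0 and not as absence of the transcript. For members at 0 in part of a group, each library is given instead of a mean TPM. Of 9 genes of the CLP gate and of lymphoid priming, Flt3, Dntt, Ly6d, and Cd34 were above 0 in 13 of 13 libraries, Il7r and Ptprc in 12, Rag1 in 11, Kit in 8, and Ly6a in 5. Of the markers of other cells, Hbb-bs, Klf1, Car1, Cd3e, Cd3g, Ncr1, Klrb1c, Cxcl12, Lepr, Cdh5, and Adipoq were at 0 in every library. Others were listed in part: Nkg7 in 5 libraries, up to 1122 TPM, the endothelial gene Pecam1 in 10, up to 155 TPM, Col1a1 in 3, Hba-a1 in 2, and Cd3d and Col1a2 in 1. The summed level of 7 B lineage genes was 4.95 to 897 TPM in WT, 14.5 to 1839 TPM in Notch1+/-, and 79.5 to 1555 TPM in Notch1+/ΔTAD libraries, and that of 8 myeloid genes was 436 to 2067 TPM, 212 to 1257 TPM, and 272 to 1773 TPM. In bulk RNA of this kind, fewer cells of a type and less RNA per cell cannot be told apart. Notch1 itself was 0 to 25.7 TPM in WT, 9.27 to 78.5 TPM in Notch1+/-, and 0.893 to 35.0 TPM in Notch1+/ΔTAD libraries, and so gave no check of the genotype labels.

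WT libraries 10 and 11 stood apart from WT libraries 1, 2, and 3 in 3 of the 9 CLP genes. Il7r, the receptor chain that CD127 names, was 9.30 and 1.07 TPM in libraries 10 and 11 against 128 to 184 TPM in the other 3. Rag1, a recombinase gene of lymphoid priming, was 0.106 TPM and 0 against 16.7 to 61.1 TPM, and Ly6d was 727 and 271 TPM against 1034 to 2559 TPM. The other genes of the CLP list did not separate them in this way: Flt3 was 142 and 144 TPM against 40.6 to 282 TPM, Dntt was 5007 and 5060 TPM against 3482 to 7459 TPM, and Cd34, Ptprc, and Kit also lay within the range of the other 3. Ly6a was 215 TPM in library 10 and at 0 in the other 4. Mutant libraries of higher number shared part of this shift. Ly6d was 309 and 194 TPM in Notch1+/- libraries 12 and 13 against 933 to 1538 TPM in libraries 4, 5, and 6. In Notch1+/ΔTAD library 14 it was 1801 TPM against 2302 and 2065 TPM in libraries 7 and 9. Il7r was 11.4 TPM there against 96.8 and 122 TPM, and Rag1 was 0 against 7.11 and 33.9 TPM. In Notch1+/- these 2 genes overlapped, with library 6 at 0 and 1.785 TPM. Without libraries 10 and 11, no WT library listed Deptor, Mtor, Rptor, or Tsc1. Leaving both out was chosen after seeing the data.

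Deptor was above 0 in 2 libraries, both of them WT. WT library 10 held 45.5 TPM of it and WT library 11 held 16.1 TPM, and it was listed at 0 in WT libraries 1, 2, and 3, in Notch1+/- libraries 4, 5, 6, 12, and 13, and in Notch1+/ΔTAD libraries 7, 9, and 14. Only WT libraries were above 0, but the genotypes overlapped, because 3 of 5 WT libraries shared the value of 0 with all 8 mutant libraries. Without WT libraries 10 and 11, Deptor was at 0 in every library of the series. In WT library 10 it ranked above 56.9% of the genes listed there, and in WT library 11 above 32.7%.

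Neither mutant differed from WT in Deptor by the test used here. The study, by DESeq2, a count model that was not run here, reported Deptor as affected in both mutants. From quantitative PCR of sorted WT and Notch1+/ΔTAD CLPs, the study also reported Deptor to be a transcriptional target of Notch. In other cells, it reported lower Deptor in immature thymocytes of Notch1+/ΔTAD mice. It also reported that Deptor was affected in progenitor cultures treated with an inhibitor of Notch activation. None of these measurements is part of the data used here. The 2-sided exact permutation test of mean log2(TPM + 1) gave p = 0.464 for Notch1+/ΔTAD against WT and p = 0.444 for Notch1+/- against WT, and both were 1.0 after Benjamini-Hochberg adjustment over all genes. Since 3 WT libraries share the value of the mutants, a lower level in the mutants could give no smaller p in this test. No fold change is given, since the mutant libraries were all at 0. Deptor did not reach the minimum for the test across all genes, and when limma was run without that minimum its adjusted p was 0.792 for Notch1+/ΔTAD and 0.709 for Notch1+/-.

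A listing of this shape was not rare in these tables. Among the 10149 genes with any value above 0, 1245 were listed in exactly 2 libraries, and 105 were above 0 in 2 WT libraries and in no mutant library. Another 165 genes were above 0 in 2 Notch1+/- libraries and nowhere else, the same shape in a mutant. The pattern of WT libraries 10 and 11 and no other was shared by 6 genes, Deptor included.

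Over the 13 libraries, the 5 genes whose log2(TPM + 1) was most like that of Deptor among 8494 genes were Jcad, Rabl2, Hltf, Sil1, and Lyrm9, with Pearson r of 0.998, 0.994, 0.975, 0.974, and 0.966. These values describe 13 points that share libraries, of which 11 lay at or near 0 in every one of these genes. Jcad was 62.9 and 28.2 TPM in WT libraries 10 and 11, Rabl2 was 33.4 and 7.06 TPM, Hltf was 59.8 and 98.0 TPM, Sil1 was 77.3 and 104 TPM, and Lyrm9 was 25.1 and 48.7 TPM. The highest value of any of them in another library was 1.01 TPM, of Sil1 in WT library 1.

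**Figure D1:**
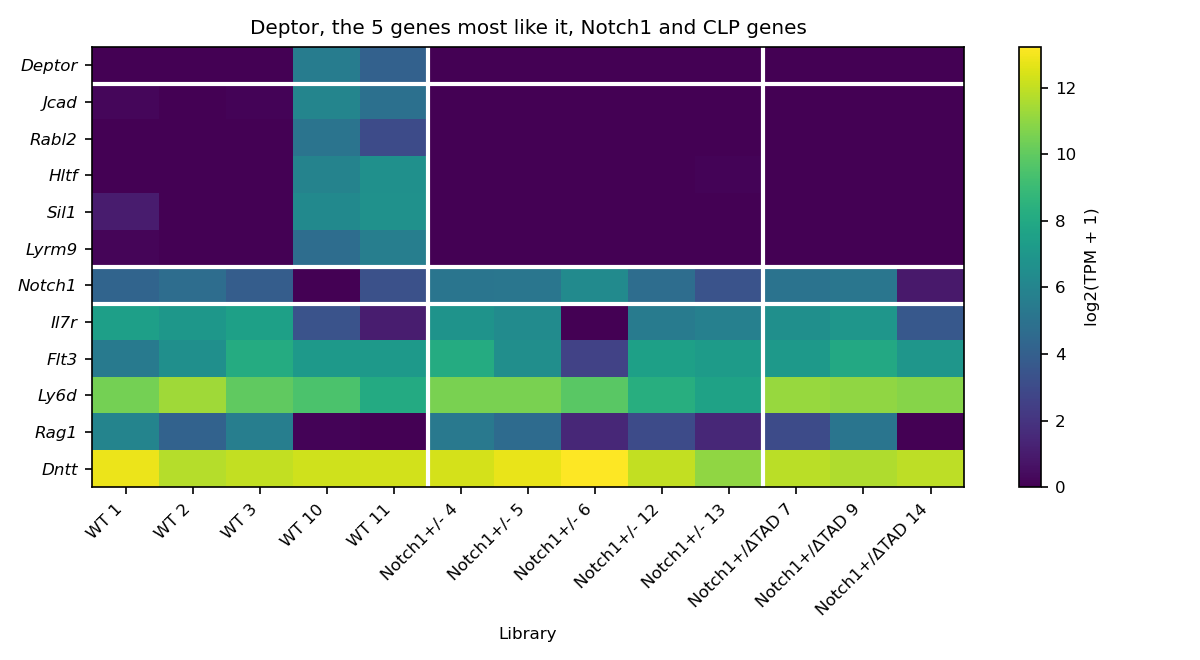
Heat map of log2(TPM + 1) for Deptor, the 5 genes most like it, Notch1, and 5 genes of the CLP gate and lymphoid priming in each of the 13 libraries, with white lines between genotypes and between gene groups. Deptor and the genes like it exceed 1.01 TPM in WT libraries 10 and 11 alone, where Il7r and Rag1 are the lowest of the WT libraries.

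The 2 WT libraries that listed Deptor also had the lowest Notch1 of the WT libraries. Notch1 was listed at 0 in WT library 10 and was 8.83 TPM in WT library 11, against 13.8 to 25.7 TPM in WT libraries 1, 2, and 3. Any relation between the levels of Deptor and Notch1 was not tested. Markers of other cells were uneven in WT libraries 10 and 11. Nkg7, a granule gene of NK and cytotoxic cells, was 1122 TPM in WT library 10 and at 0 in WT library 11, while the other 5 T and NK genes in the tables were at 0 in both. Of 5 plasma cell genes, Jchain was 0.188 and 13.6 TPM, Sdc1 was 0.570 and 81.6 TPM, and Xbp1 was 0 and 5.26 TPM in WT libraries 10 and 11. Sdc1 was also 79.2 TPM in WT library 1, which did not list Deptor, and the plasma cell factors Prdm1 and Irf4 were at 0 in every WT library. Pecam1 was 0.531 and 155 TPM in WT libraries 10 and 11. The summed level of the 5 plasma cell genes was 0 to 100 TPM in WT, 0 to 142 TPM in Notch1+/-, and 0.235 to 41.8 TPM in Notch1+/ΔTAD libraries, and the part of such cells in the Deptor values was not tested.

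Mtor, the kinase itself, was above 0 in 8 of 13 libraries. In WT it was 41.5 TPM in library 11 and at 0 in libraries 1, 2, 3, and 10. In Notch1+/- it was 0.246, 14.0, 50.3, 0.432, and 0 TPM in libraries 4, 5, 6, 12, and 13, and in Notch1+/ΔTAD it was 0.159, 4.75, and 13.5 TPM in libraries 7, 9, and 14. It was therefore listed in 1 of 5 WT, 4 of 5 Notch1+/-, and 3 of 3 Notch1+/ΔTAD libraries, but WT library 11 lay above every Notch1+/ΔTAD library and the genotypes overlapped. The log2 fold change of Notch1+/ΔTAD over WT was 1.11 (SE 1.52, limma adjusted p = 0.996, exact permutation p = 0.393), and that of Notch1+/- over WT was 1.00 (exact permutation p = 0.484). Between the mutants it was 0.11 (SE 1.77, limma adjusted p = 0.999). The first value was 0.29 without Notch1+/ΔTAD library 14, 2.11 without library 7, 0.06 after quantile normalization, and 2.94 and 0.13 with pseudocounts of 0.1 and 10, and the second was 0.10 without Notch1+/- library 6. Without WT library 11 no WT library listed Mtor, and no fold change is given.

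The difference between Notch1+/- and WT in Mtor differed in sign between the lower and the higher library numbers. Within libraries 1 to 9 the mean log2(TPM + 1) of Mtor was higher in Notch1+/- by 3.30, and within libraries 10 to 14 the difference was -2.45. The latter rests on WT library 11 at 41.5 TPM. WT library 10 and Notch1+/- library 13 were at 0, and Notch1+/- library 12 was 0.432 TPM. Between Notch1+/ΔTAD and WT the differences were 1.37 and 1.15. WT libraries 1, 2, and 3 were all at 0 for Mtor, and library 14 is the only Notch1+/ΔTAD library in the higher range. The labels describe 1 round of library preparation, and no other meaning of the numbers is given. The highest Notch1+/- value of Mtor came from library 6, in which Il7r was listed at 0 and Flt3 was 5.21 TPM.

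The scaffolds that define the complexes were listed unequally. Rptor, the scaffold of mTORC1, was 3.73 TPM in WT library 10 and at 0 in the other 12 libraries, and 83.7% of the 10149 listed genes were above 0 in more libraries. Rictor, the scaffold of mTORC2, was above 0 in 7 libraries. It was 11.8, 0, 11.2, 0, and 0 TPM in WT libraries 1, 2, 3, 10, and 11, then 6.83, 0, 12.6, 0, and 1.75 TPM in Notch1+/- libraries 4, 5, 6, 12, and 13, and 4.12, 0, and 13.6 TPM in Notch1+/ΔTAD libraries 7, 9, and 14. Every genotype held libraries at 0 and libraries above 11 TPM, so the ranges of Rictor were nearly the same in all 3.

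Rictor differed from WT by a log2 fold change of 0.62 in Notch1+/ΔTAD (SE 1.51, 95% confidence interval [CI] -2.63 to 3.87, limma adjusted p = 0.996) and of 0.18 in Notch1+/- (SE 1.12, 95% CI -2.20 to 2.57, limma adjusted p = 0.993). Between the mutants the value was 0.43 (SE 1.60, limma adjusted p = 0.997). The sign of each of these turned under quantile normalization or under a pseudocount of 10, and without WT libraries 10 and 11 the values against WT were -0.35 and -0.79. For Notch1+/ΔTAD against WT the difference was -1.25 within libraries 1 to 9 and 3.87 within libraries 10 to 14. The latter sets the single Notch1+/ΔTAD library 14 against WT libraries 10 and 11, both at 0. Of Rptor only WT library 10 had a value, and the exact permutation p was 1.0 against either mutant.

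Mlst8, the subunit that both complexes share, was 124, 0, and 65.4 TPM in Notch1+/ΔTAD libraries 7, 9, and 14. In Notch1+/- it was 88.9 TPM in library 4, 0.176 TPM in library 13, and 0 in libraries 5, 6, and 12. In WT it was 0.378 TPM in library 2 and 0 in libraries 1, 3, 10, and 11. So 2 of 3 Notch1+/ΔTAD libraries and 1 of 5 Notch1+/- libraries exceeded 1 TPM, against 0 of 5 in WT, while Notch1+/ΔTAD library 9 kept the groups overlapping. The log2 fold change over WT was 4.25 in Notch1+/ΔTAD (exact permutation p = 0.107, 1.0 adjusted over all genes) and 1.25 in Notch1+/- (exact permutation p = 0.722). Notch1+/ΔTAD exceeded Notch1+/- by 3.00 on the log2 scale (SE 1.75, 95% CI -0.64 to 6.64, limma adjusted p = 0.987, exact permutation p = 0.375). Mlst8 did not reach the minimum for limma against WT, and without that minimum its unadjusted p for Notch1+/ΔTAD was 0.049 and its adjusted p 0.778. Without 1 library, the value for Notch1+/ΔTAD against WT lay between 2.93 (without Notch1+/ΔTAD library 7) and 6.42 (without Notch1+/ΔTAD library 9). The larger number of genes listed in Notch1+/ΔTAD than in WT libraries runs the same way, and its part in the Mlst8 values was not tested. Bricd5 overlaps Mlst8 on the other strand, and whether the authors used strand to assign reads is not given in the sources used here.

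Listed together, the subunits rarely made up a whole complex. Mtor, Rictor, and Mlst8 were all above 0 in 3 of 13 libraries, Notch1+/- library 4 and Notch1+/ΔTAD libraries 7 and 14. Mtor, Rptor, and Mlst8 were together above 0 in 0 of 13, and Mtor and Rptor in 0 of 13. Deptor and Mtor were both above 0 in WT library 11 alone. These counts describe which transcripts the libraries listed and say nothing of the proteins.

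**Figure D2:**
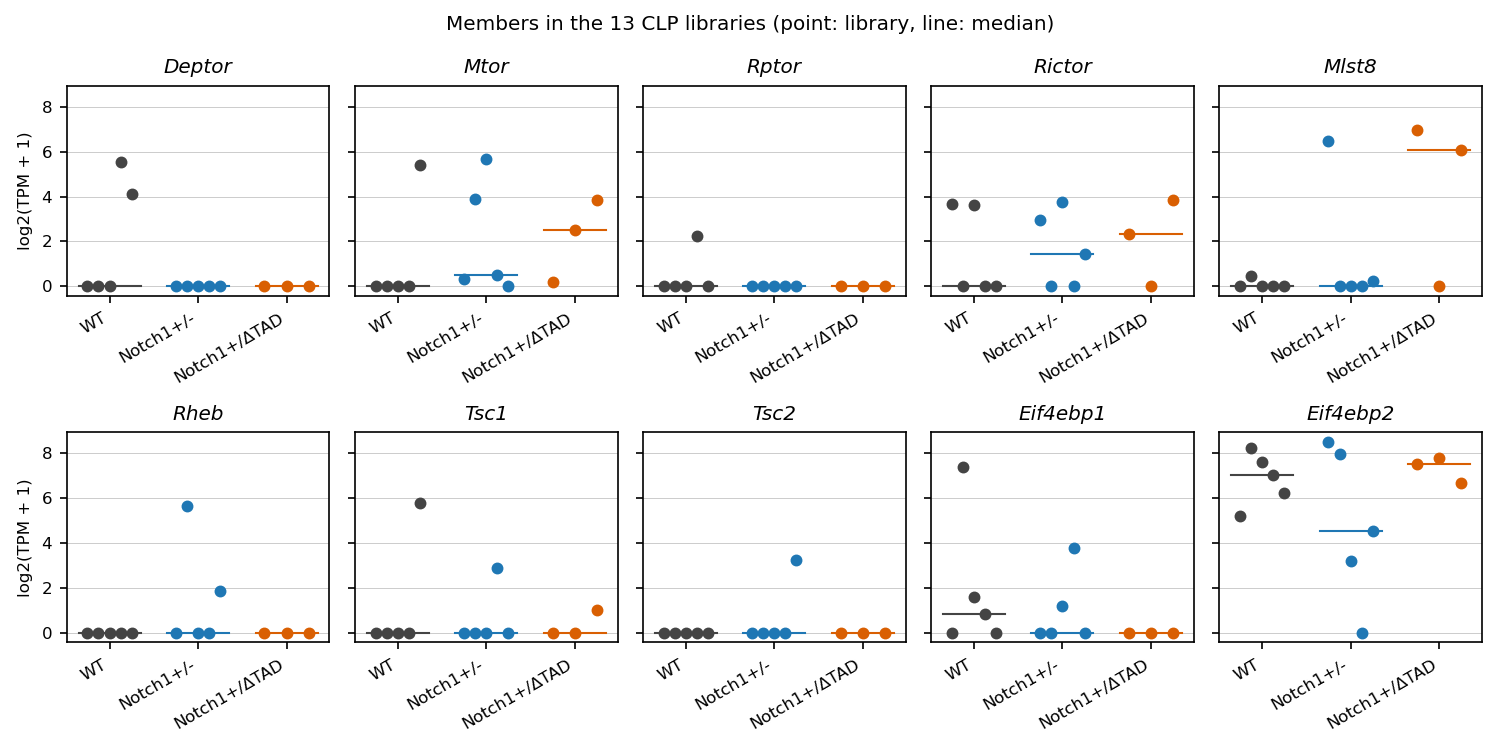
Log2(TPM + 1) of each of the 10 genes in WT, Notch1+/-, and Notch1+/ΔTAD CLPs, with 1 point per library, ordered by library number within a genotype, and a line at the median. Deptor is above 0 in WT libraries 10 and 11 only, Mlst8 is above 6 on this scale in 1 Notch1+/- and 2 Notch1+/ΔTAD libraries, and Eif4ebp2 is the only gene above 0 in 12 of 13 libraries.

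Among the regulators upstream of mTORC1, Rheb, the activating GTPase, was 49.6 TPM in Notch1+/- library 5 and 2.69 TPM in Notch1+/- library 13. The other 3 Notch1+/- libraries, 5 of 5 WT libraries, and 3 of 3 Notch1+/ΔTAD libraries listed it at 0. Rheb thus had the shape of Deptor in the opposite genotype, 2 of 5 libraries above 0 and the compared group at 0, and the exact permutation p against WT was the same, 0.444. Against Notch1+/ΔTAD it was 0.732. No fold change is given, since WT and Notch1+/ΔTAD were at 0.

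Tsc1 was above 0 in 1 library of each genotype. It was 53.9 TPM in WT library 11, 6.31 TPM in Notch1+/- library 12, and 1.01 TPM in Notch1+/ΔTAD library 14, all of them numbered 10 or higher. Tsc2, which encodes the GTPase-activating partner of TSC1, was 8.62 TPM in Notch1+/- library 13, with a value of 0 in each of the other 12 libraries. The partners were thus never listed in the same library. The log2 fold change of Tsc1 over WT was -0.82 in Notch1+/ΔTAD and -0.58 in Notch1+/-, with an exact permutation p of 1.0 for each. Without WT library 11 no WT library listed it and no fold change against WT is given. Between the mutants it was -0.24 (SE 1.22, 95% CI -2.77 to 2.29, limma adjusted p = 0.997). For Tsc2 the exact permutation p was 1.0 for Notch1+/- against either other genotype.

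The translation repressors downstream of mTORC1 were the opposite pair in how often they were listed. Eif4ebp2 was 36.3, 303, 194, 128, and 74.3 TPM in WT libraries 1, 2, 3, 10, and 11. It was 361, 247, 8.27, 0, and 22.5 TPM in Notch1+/- libraries 4, 5, 6, 12, and 13, and 185, 222, and 101 TPM in Notch1+/ΔTAD libraries 7, 9, and 14. The Notch1+/ΔTAD libraries lay inside the WT range, and the Notch1+/- libraries held both the highest and the lowest values of the series. In mean ± SD, Eif4ebp2 was 147 ± 105 TPM in WT (n = 5) and 169 ± 61.9 TPM in Notch1+/ΔTAD (n = 3) CLPs. It ranked above 50.7% to 86.7% of listed genes in WT and above 79.0% to 85.4% in Notch1+/ΔTAD libraries.

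Eif4ebp2 differed from WT by a log2 fold change of 0.47 in Notch1+/ΔTAD CLPs (SE 1.01, 95% CI -1.70 to 2.65, limma adjusted p = 0.996, exact permutation p = 0.589). In Notch1+/- CLPs it was -2.02 (SE 1.53, 95% CI -5.29 to 1.25, limma adjusted p = 0.991, exact permutation p = 0.270). The difference from WT in Notch1+/- was -0.47 within libraries 1 to 9 and -4.34 within libraries 10 to 14. Without Notch1+/- library 12, in which Eif4ebp2 was listed at 0, it was -0.81, and without library 6 or 13 it was -1.61 or -1.95. Notch1+/ΔTAD exceeded Notch1+/- by 2.49 (SE 1.62, 95% CI -0.87 to 5.86, limma adjusted p = 0.997). The 95% CI of each comparison included 0. Without 1 library, the value for Notch1+/ΔTAD against WT lay between 0.06 (without WT library 1) and 0.82 (without WT library 2).

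Eif4ebp1 was listed in 5 libraries. It was 0, 167, 2.04, 0.786, and 0 TPM in WT libraries 1, 2, 3, 10, and 11, and 0, 0, 1.26, 12.7, and 0 TPM in Notch1+/- libraries 4, 5, 6, 12, and 13. It was at 0 in Notch1+/ΔTAD libraries 7, 9, and 14. A single library, WT library 2, held nearly all of the WT level, and the range of every genotype began at 0. The exact permutation p was 0.554 for Notch1+/ΔTAD against WT and 0.643 for Notch1+/- against WT, the latter with a log2 fold change of -0.97 that was 0.38 without WT library 2. Both repressors were above 0 in 4 libraries, and Eif4ebp2 exceeded Eif4ebp1 in 12 of 13, the exception being Notch1+/- library 12, where Eif4ebp2 was at 0 and Eif4ebp1 was 12.7 TPM.

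By the median over all 13 libraries, on the TPM scale, Eif4ebp2 came first at 128 TPM, followed by Rictor at 1.75 TPM and Mtor at 0.246 TPM, and the other 7 genes had a median of 0. Eif4ebp2 was the highest of the 10 genes in 11 libraries. The exceptions were Notch1+/- library 6, in which Mtor was higher, and Notch1+/- library 12. Rictor and Mtor did not separate, since Rictor was the higher in 6 libraries and Mtor in 5, and the other genes could not be ordered. TPM divides by transcript length although a 3′ library yields reads only near the transcript end, so long transcripts are given lower values for the same number of molecules. The longest annotated transcripts of these genes run from 1784 bases for Rheb to 9312 bases for Rictor.

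Positions of the 10 genes are from GENCODE M21, on GRCm38. Deptor is on the plus strand at chr15:55112317-55259271, with 9 exons and Gm9920 on the other strand, and Rictor is on the same chromosome at chr15:6708379-6800401, on the plus strand, with 38 exons. Mlst8 (chr17:24473551-24479078) and Tsc2 (chr17:24595816-24632630) are near each other on the minus strand, and Pkd1 overlaps Tsc2 on the plus strand. Mtor is at chr4:148448611-148557683, Rptor at chr11:119602905-119899576, Rheb at chr5:24802823-24842624, Tsc1 at chr2:28641228-28691167, Eif4ebp1 at chr8:27260329-27276674, and Eif4ebp2 at chr10:61428491-61452661.

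Because the mutations act on RBPj-dependent transcription, the promoter windows of the members were searched for the core letters of the RBPj site, TGGGAA or TTCCCA on the other strand. Windows run from 250 bases before to 50 bases after the start site (RefSeq, GRCm38.p6), and 8 of the 10 genes had one, all but Deptor and Eif4ebp1. The letters were in the windows of Rictor, Mlst8, and Tsc2, 3 of 8, beside 25.6% of 32851 windows of all genes. The longer form GTGGGAA, which contains the core, was in the window of Rictor and in 6.38% of all windows. The matches are printed along the strand of the gene with the matched letters in capitals, at chr15:6708133-6708157 (plus strand) for Rictor, chr17:24479228-24479251 (minus strand) for Mlst8, and chr17:24632663-24632686 (minus strand) for Tsc2.
Rictor: cccccccccGTGGGAActgcgcctc
Mlst8: tggctgtagTTCCCAgtgagttga
Tsc2: aaactacaaTTCCCAgagagctca
The first capital stands at position -239 from the start site in Rictor, -164 in Mlst8, and -50 in Tsc2. A match of letters is a description and not a measured site. None of these 3 genes passed the threshold in any comparison.

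Across the comparisons, 0 of the 10 genes passed the threshold of a limma adjusted p under 0.05. In Notch1+/ΔTAD against WT, 3 of the 10 genes (Mtor, Rictor, and Eif4ebp2) reached the minimum of 1 TPM in 3 of 8 libraries, 0 had an adjusted p under 0.05, as did 0% of the 4737 genes tested, and 0 had an unadjusted p under 0.05, beside 5.0% of all genes. The libraries of the genotypes overlapped in all 3, and in all but 3.12% of the genes tested. In Notch1+/- against WT, 2 of the 10 (Rictor and Eif4ebp2) reached 1 TPM in 5 of 10 libraries, with 0 at an adjusted p under 0.05 (0% of 3178 genes), 0 at an unadjusted p under 0.05 (5.35% of genes), and 0 without overlap (0.787% of genes). Between the mutants, Mtor, Rictor, Mlst8, Tsc1, Eif4ebp1, and Eif4ebp2 were tested, 6 of the 10, again with 0 at an adjusted p under 0.05 (0% of 6281 genes), 0 at an unadjusted p under 0.05 (5.33% of genes), and 0 without overlap (3.06% of genes). A gene with many libraries at 0 could not reach the minimum, so these counts do not cover Deptor, Rptor, Rheb, or Tsc2. Without the minimum, the limma adjusted p of these 4 genes was 0.709 or more in each comparison in which they had a value above 0. The exact permutation test gave 0 genes past an adjusted p of 0.05 in any comparison and 234, 262, and 213 genes at an unadjusted p under 0.05, of 9215, 9641, and 9534 genes compared. Its smallest possible p, 0.0179 over 56 splits and 0.00397 over 252, passes this adjustment only if many genes share it. With so few splits, the count of 0 by the exact permutation test could hardly have come out otherwise. The limma test has no such limit, and under some other settings it passed genes of the whole table, none of them a member. No conclusion is drawn from either count.

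**Figure D3:**
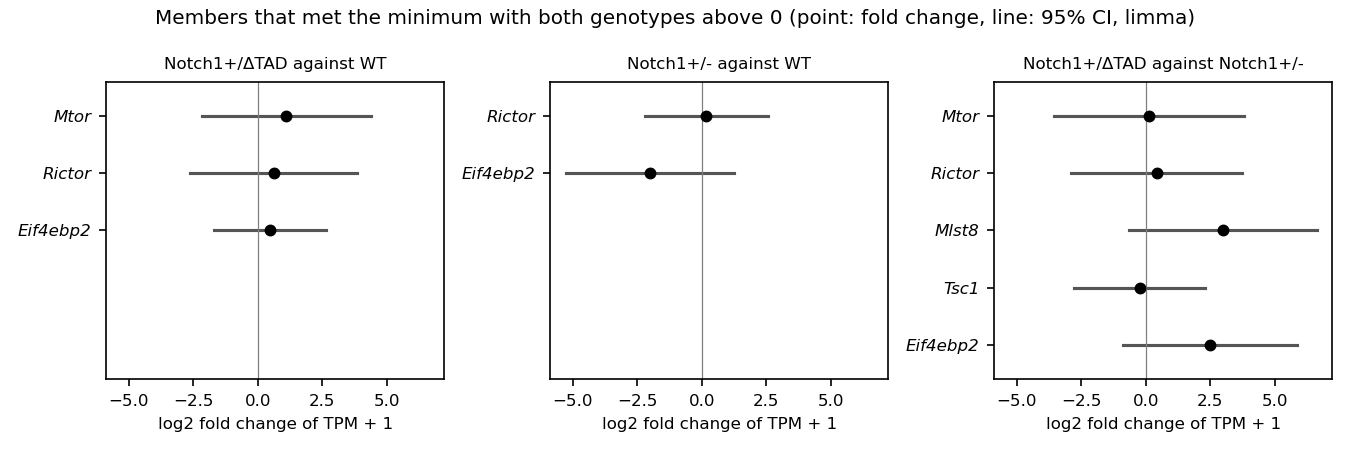
Log2 fold change of TPM + 1 in each comparison for the members that met the minimum of the limma test and were above 0 in both genotypes, with a line for the 95% CI. Every interval crosses 0, and the widest, such as that of Mlst8 between the mutants (-0.64 to 6.64), span more than 6 log2 units.

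The wider mTOR pathway was read from 74 other genes in 5 lists. Of these, 65 were above 0 in at least 1 library and 9 in none. Among genes above 0 somewhere, those of the targets and of the cap-binding machinery were listed in a median of 11 libraries, those that control Deptor turnover and those of growth factor and energy inputs in 9, the partners of the mTOR complexes in 6, and those of lysosomal amino acid sensing in 4, whereas the 10 members were listed in a median of 4 and all such genes of the tables in 5. The 7 genes listed in every library were Pik3cd, Pik3r1, Rps6, Eif4g1, Eif4a1, Eif4b, and Larp1. The ribosomal protein gene Rps6, whose protein is phosphorylated downstream of mTORC1, ranged from 1453 to 3453 TPM over the 13 libraries, far above every value of the members.

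**Figure D4:**
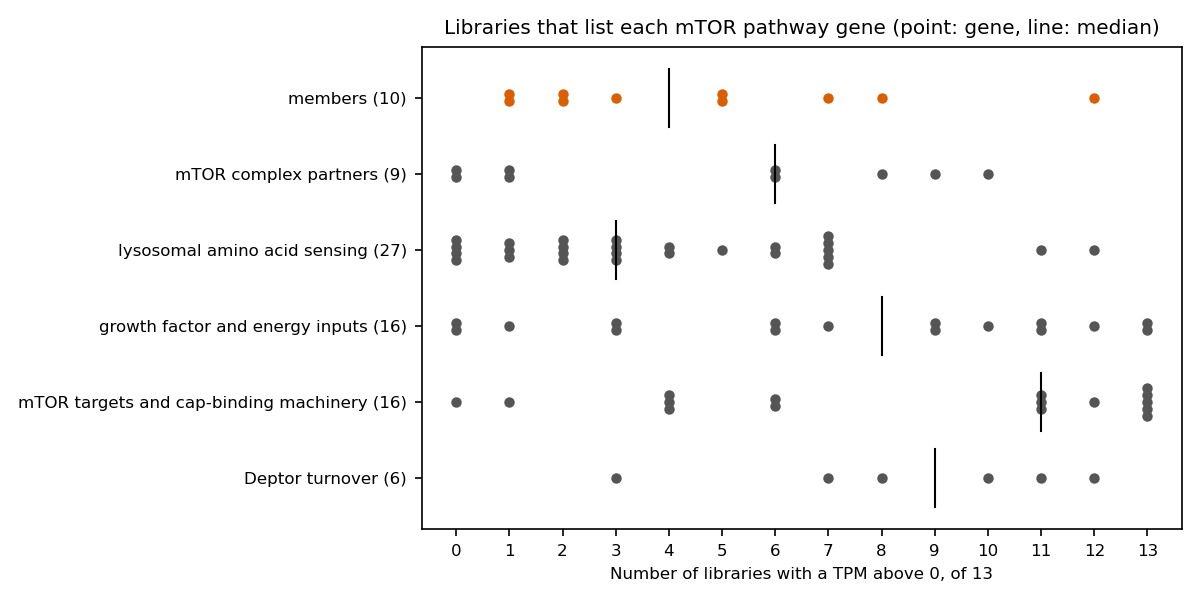
Number of libraries, of 13, with a TPM above 0 for each of the 10 members and the 74 genes of 5 mTOR pathway lists, with 1 point per gene and a line at the median of each list, genes at 0 in every library included. The members have a median of 4 libraries, between lysosomal amino acid sensing at 3 and the complex partners at 6.

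None of the 74 genes passed the threshold in any comparison. Between Notch1+/ΔTAD and WT, 42 were tested, with 32 higher and 10 lower in Notch1+/ΔTAD and a median log2 fold change of 0.77 against 0.47 over all genes tested. After quantile normalization, which moved the median of all genes to -0.02, the split was 25 higher and 17 lower. The number of genes above 0 was also higher in every Notch1+/ΔTAD than in every WT library, and its part in the split was not tested. Of the 42, 3 had an unadjusted p under 0.05, all of them higher, beside 5.0% of all genes tested. Ddit4, which encodes an inhibitor of mTORC1 that acts through the TSC proteins, was 125, 189, and 129 TPM in Notch1+/ΔTAD libraries 7, 9, and 14 and 0.324, 157, 0, 0, and 2.00 TPM in WT libraries 1, 2, 3, 10, and 11 (log2 fold change 5.33, SE 2.00, limma adjusted p = 0.864). Lamtor3, of the Ragulator complex that holds mTORC1 at the lysosome, had a log2 fold change of 4.86 (SE 2.21, limma adjusted p = 0.952). It was 226, 443, and 1.09 TPM in Notch1+/ΔTAD libraries 7, 9, and 14, 35.5 TPM in WT library 2, and 0 in WT libraries 1, 3, 10, and 11. Sec13, of the GATOR2 complex, had a log2 fold change of 3.76 (SE 1.73, limma adjusted p = 0.952). It was 0, 521, and 6.59 TPM in Notch1+/ΔTAD libraries 7, 9, and 14, 1.15 TPM in WT library 2, and 0 in WT libraries 1, 3, 10, and 11. The lower genes with the smallest p-values were Akt1 (-2.25), Cul1 (-2.73), and Pik3cd (-1.26), with limma adjusted p = 0.958, 0.972, and 0.972. The libraries of the genotypes overlapped in each of them. Akt1 was 0.340 TPM in Notch1+/ΔTAD library 9, while libraries 7 and 14, at 267 and 160 TPM, lay within the WT range of 106 to 404 TPM.

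Between Notch1+/- and WT, 27 of the 74 genes were tested, 11 higher and 16 lower, with a median of -0.38 against 0.06 over all genes. Of the 27, 1 had an unadjusted p under 0.05, beside 5.35% of all genes tested. This was Btrc, which encodes the F-box protein that marks phosphorylated DEPTOR for degradation. It was 61.8, 55.3, 71.2, 0.195, and 26.6 TPM in Notch1+/- libraries 4, 5, 6, 12, and 13, and 2.29 TPM in WT library 3 and 0 in the other 4 WT libraries (log2 fold change 4.26, SE 1.35, limma adjusted p = 0.756). Notch1+/- library 12 lay within the WT range. In Notch1+/ΔTAD, Btrc was 48.9 TPM in library 9 and 0 in libraries 7 and 14. Of the other genes named by the same rule, Tti1 and Eif4b had log2 fold changes of 3.84 and 2.36 (limma adjusted p = 0.910 and 0.921), and Eif4a1, Pik3cd, and Rps6kb1 had -2.12, -2.17, and -2.50 (limma adjusted p = 0.910, 0.969, and 0.978).

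Between the mutants, 53 of the 74 genes were tested, 37 higher and 16 lower in Notch1+/ΔTAD, with a median of 0.65 against 0.35 over all genes. After quantile normalization 33 were higher and 20 lower. Of the 53, 7 had an unadjusted p under 0.05, 6 of them higher and 1 lower, beside 5.33% of all genes tested. The lower gene was Cul1, the cullin of the ligase that degrades DEPTOR, with Notch1+/ΔTAD libraries 7, 9, and 14 at 0.363, 0.770, and 2.87 TPM against 28.9 to 101 TPM in the 5 Notch1+/- libraries (log2 fold change -5.06, SE 1.87, limma adjusted p = 0.932). Its libraries did not overlap between the mutants, as in 3.06% of all genes tested, but WT libraries spanned both, from 0 in libraries 3 and 10 to 163 TPM in library 2. Lamtor5 was 148, 481, and 265 TPM in Notch1+/ΔTAD libraries 7, 9, and 14, and 360 TPM in Notch1+/- library 4 and 0 in the other 4 Notch1+/- libraries (log2 fold change 6.36, SE 2.35, limma adjusted p = 0.932). Sec13 and Rps6kb2, which encodes an S6 kinase, were at 0 in all 5 Notch1+/- libraries, and each was above 0 in 2 of 3 Notch1+/ΔTAD libraries (limma adjusted p = 0.932 for both). Mapkap1, of mTORC2, and Btrc had log2 fold changes of -3.21 and -2.72 (limma adjusted p = 0.997 for both).

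The number of members above 0 followed no genotype. It was 2 to 4 in WT libraries, 3 to 5 in Notch1+/- libraries, and 2 to 5 in Notch1+/ΔTAD libraries. Both libraries with 5 members, Notch1+/- library 13 and Notch1+/ΔTAD library 14, were those with the most genes above 0, at 6326 and 5764. The summed TPM of the 10 members was 48.1 to 470 in WT, 19.4 to 457 in Notch1+/-, and 195 to 314 in Notch1+/ΔTAD libraries, and Eif4ebp2 made up 40.0% to 93.6%, 0% to 79.5%, and 51.9% to 97.9% of it. The lowest sum was in Notch1+/- library 12, the library in which Eif4ebp2 was listed at 0.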

How the data were processed

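Sorted CLP RNA was sequenced by the authors as strand-specific QuantSeq 3′ libraries. Reads were trimmed with FASTQ Toolkit and aligned by STAR to mm10. The authors deposited TPM in 2 tables, which pair each mutant with the same WT columns. The tool, annotation, and filter behind the TPM are not given in the sources used here. Read counts were not used here, so count models such as the study's DESeq2 were not run. On log2(TPM + 1), limma 3.58.1 in R 4.3.3 (lmFit, eBayes with trend, 2-sided) was run over genes with at least 1 TPM in 3 of 8, 5 of 10, or, for the mutants in 1 model of 13 libraries, 3 of 13 libraries. The threshold was an adjusted p under 0.05 (Benjamini-Hochberg over all genes tested). Every gene above 0 was also compared by a 2-sided exact permutation test, whose smallest p is 0.0179 over 56 splits and 0.00397 over 252. Alternatives were pseudocounts of 0.1 and 10, no minimum, a mean of 10 TPM, quantile and median-ratio scaling, no trend, a term for library numbers, other samples in the model, and leaving out each library. The tests were checked on simulated data. Samples were grouped by genotype labels. Members and lists were chosen with earlier results of these data known. By rule, the text names the members, Notch1, the 5 genes most correlated with Deptor, and, of the pathway lists, the genes of the 3 smallest limma p-values in each direction and comparison. Markers are named to check the sort, and the genes listed in every library were named after their values were seen.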

Additional observations from a re-analysis of the deposited data

Results flagged for a closer look

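In groups of 5 libraries, a highest or lowest value was singled out when its gap to the nearest library exceeded Dixon's ratio of 0.71 of the group's range. Of 22 groups with unequal values, those of the members and of 3 measures of the libraries (genes above 0, members above 0, and summed TPM of the members), 11 passed, all of them groups of members. Chance alone gives about 1 in 20 for normally distributed values, a rate that does not apply to groups mostly at 0. In 6 of the 11 groups the value was the only one above 0.

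Among WT libraries, these were Mtor at 41.5 TPM and Tsc1 at 53.9 TPM in library 11, Rptor at 3.73 TPM in library 10, and Mlst8 at 0.378 TPM and Eif4ebp1 at 167 TPM in library 2. Among Notch1+/- libraries, they were Mlst8 at 88.9 TPM in library 4, Rheb at 49.6 TPM in library 5, Mtor at 50.3 TPM in library 6, Tsc1 at 6.31 TPM and Eif4ebp1 at 12.7 TPM in library 12, and Tsc2 at 8.62 TPM in library 13. Deptor was not among them, because the gap between its highest WT values, 45.5 and 16.1 TPM, stayed under Dixon's ratio. Eif4ebp2 was not among them either. The 3 Notch1+/ΔTAD libraries were too few for this check.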

How the results depend on the processing

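No member passed the threshold under any alternative that gave an adjusted p, with a smallest adjusted p of 0.709 over 168 such values, and 10 of the 16 member comparisons with a fold change kept their direction under every alternative run. Without the mean-variance trend, 15, 2, and 3 genes of the whole table passed in Notch1+/ΔTAD against WT, Notch1+/- against WT, and between the mutants, and with 1 model of 13 libraries 5 passed in Notch1+/ΔTAD against WT, none of them a member; the cause was not tested. Under quantile normalization Rictor turned to -0.23 in Notch1+/ΔTAD against WT, and Rictor and Mtor to -0.51 and -1.29 between the mutants. With a pseudocount of 10, Rictor turned to -0.008 in Notch1+/- against WT and Mtor to -0.18 between the mutants. Without WT libraries 10 and 11, a choice made after seeing the data, Rictor turned to -0.35 and -0.79 in Notch1+/ΔTAD and Notch1+/- against WT. Leaving out 1 library at a time, Rictor ranged from -0.28 to 1.66 in Notch1+/ΔTAD against WT and from -0.46 to 1.47 between the mutants, below 0 without Notch1+/ΔTAD library 14 in both. In Notch1+/- against WT, Rictor ranged from -0.35 to 0.74, below 0 without WT library 2, 10, or 11 or Notch1+/- library 4 or 6, Mlst8 from -0.034 to 1.59, below 0 without Notch1+/- library 4, and Eif4ebp1 from -1.67 to 0.38, above 0 without WT library 2. Mtor between the mutants ranged from -0.72 to 1.10, below 0 without Notch1+/- library 4, 12, or 13 or Notch1+/ΔTAD library 9 or 14. In 14 member comparisons a genotype was at 0 and no fold change was computed, and in another 10 leaving out a library had this effect. No paired analysis was possible because library numbers are not shared between genotypes. TPM without counts gives no limit for a value of 0, so a transcript listed at 0 may have been present below detection.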
